A study of Mus musculus with 16 samples.

Results

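The loci of 5 immediate-early genes, Fos, Jun, Junb, Fosl2 and Egr1, were examined for H3K4me1 in dendritic cells and in 3T3 fibroblasts, an established mouse line. H3K4me1 is a histone methylation found at enhancers and beside promoters. For each gene a fixed window of mm9 was used, and every H3K4me1 summit listed in it was taken as a member. The windows were chromosome 12 from 86750000 to 86900000 for Fos, chromosome 5 from 32380000 to 32520000 for Fosl2, chromosome 4 from 94600000 to 94850000 for Jun, chromosome 8 from 87440000 to 87560000 for Junb, and chromosome 18 from 34950000 to 35080000 for Egr1. They cover 790 kb in all and held 84 of 79796 summits listed for dendritic cells and 75 of 81860 listed for 3T3. The series has 16 samples, covering H3K4me1, H3K27ac, acetylated H4 and input DNA in both cell types, unstimulated or after 2 h of LPS at 100 ng/ml (dendritic cells) or TNF-alpha at 10 ng/ml (3T3). Only the lists of H3K4me1 in unstimulated cells were used here, and the other 14 samples were not analysed here. The dendritic cells were grown from bone marrow progenitors that had been infected with a retroviral vector for a hairpin against JmjD2d and selected in histidinol, then matured in GM-CSF with SCF followed by GM-CSF alone. The 3T3 cells were kept in standard culture with neither vector nor cytokines named. The cell type tag of the 3T3 sample reads dendritic cells, while its title, its description, its culture notes and its list's header give 3T3. Each cell type is 1 library, so no difference was tested against a replicate spread, and cell type and hairpin cannot be told apart. Nor can a mark carried by more of the cells be told apart from more of the mark in each cell.

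Fos and Fosl2 (Fra-2) encode members of the Fos family and Jun and Junb members of the Jun family, the leucine zipper proteins that dimerise into the transcription factor AP-1. Fos proteins need a Jun partner to bind DNA, whereas Jun can also bind as a homodimer, and the preferred site is TGACTCA. Fosl2 lacks the strong activation domain of Fos, and Junb is a weaker activator than Jun at many AP-1 sites. Egr1 is a zinc finger factor that binds GC-rich sites. These genes are known for their rapid and mostly transient transcription after serum, growth factors, LPS or TNF-alpha, without a need for new protein synthesis. AP-1 factors are themselves widely bound at enhancers in myeloid cells and fibroblasts.

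The promoters of 4 of the 5 genes were taken from the RefSeq promoter table (GRCm38.p6, 250 bases before to 50 bases after the annotated start). The Egr1 promoter is not shown here. The sequences are given because short elements close to the start are known to drive the induction of immediate-early genes. Capitals mark every match to a searched motif on either strand. The motifs were TGACTCA, TGACGTCA (the cAMP response element), GCGTGGGCG and GCGGGGGCG (Egr sites), the CArG box and TATAAA, and, added after the sequences had been seen, the shorter TGACGT, which lies within TGACGTCA, and TGACATCA. The build differs from the mm9 of the summits, so no summit was placed relative to a promoter.
Fos (chr12:85473640-85473939, plus strand): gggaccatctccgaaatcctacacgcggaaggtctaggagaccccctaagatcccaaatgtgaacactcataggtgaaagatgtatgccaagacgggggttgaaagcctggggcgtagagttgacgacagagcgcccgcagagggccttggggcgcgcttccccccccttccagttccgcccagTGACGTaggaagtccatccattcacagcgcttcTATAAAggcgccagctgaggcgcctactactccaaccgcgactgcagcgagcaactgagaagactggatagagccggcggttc
Fosl2 (chr5:32136222-32136521, plus strand): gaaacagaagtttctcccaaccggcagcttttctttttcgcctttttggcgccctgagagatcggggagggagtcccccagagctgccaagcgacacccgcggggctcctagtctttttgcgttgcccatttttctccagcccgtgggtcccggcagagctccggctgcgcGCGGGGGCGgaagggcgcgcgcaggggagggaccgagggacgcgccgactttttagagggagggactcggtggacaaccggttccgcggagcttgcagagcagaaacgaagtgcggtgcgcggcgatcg
Jun (chr4:95052173-95052472, minus strand): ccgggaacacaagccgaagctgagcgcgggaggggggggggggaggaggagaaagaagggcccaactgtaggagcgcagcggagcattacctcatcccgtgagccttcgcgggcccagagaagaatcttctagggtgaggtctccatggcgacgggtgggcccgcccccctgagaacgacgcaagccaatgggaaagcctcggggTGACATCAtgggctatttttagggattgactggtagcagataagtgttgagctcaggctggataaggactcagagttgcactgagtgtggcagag
Junb (chr8:84978699-84978998, minus strand): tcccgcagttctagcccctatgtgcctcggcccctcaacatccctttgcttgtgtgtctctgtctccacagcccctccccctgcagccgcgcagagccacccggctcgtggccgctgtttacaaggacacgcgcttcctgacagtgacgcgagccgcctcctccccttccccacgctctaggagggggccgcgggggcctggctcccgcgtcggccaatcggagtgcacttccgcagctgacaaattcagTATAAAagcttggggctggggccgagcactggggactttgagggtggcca

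Matches differed between the 4 promoters, and those to TGACGT and TGACATCA rest on motifs picked from these sequences. A match is a description and not a site. The Fos promoter had TATAAA with its first letter 33 bases before the start and TGACGT 66 bases before it. Junb had TATAAA beginning at the annotated start itself. TATAAA occurs in 13.6% and TGACGT in 7.52% of all 32841 promoters of this length. In Jun the match was TGACATCA, 45 bases before the start, present in 3.62% of promoters. Fosl2 had GCGGGGGCG 79 bases before the start, present in 2.91% of promoters. TGACTCA (5.20% of promoters), TGACGTCA (1.79%), GCGTGGGCG (0.612%) and the CArG box (1.63%) were not in these 4 windows, which says only that these letters are not there.

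Each of the 5 windows held summits of both cell types, and since the windows run from 120 to 250 kb their numbers are not ranked against each other. The Fos window held 20 summits in dendritic cells (exact Poisson 95% interval 12.2 to 30.9), against 15 in 3T3 (8.40 to 24.7). Fosl2 had 19 (11.4 to 29.7) in dendritic cells, against 18 (10.7 to 28.4) in 3T3. Jun, in the longest window of 250 kb, had 21 (13 to 32.1) in dendritic cells, against 17 (9.90 to 27.2) in 3T3. All of these intervals overlap between the cell types. In the Junb window dendritic cells had 17 (9.90 to 27.2), whereas 3T3 had 14 (7.65 to 23.5). Egr1 alone had the lower number in dendritic cells, at 7 (2.81 to 14.4), against 11 (5.49 to 19.7) in 3T3, and again the intervals overlap.

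The density was set against all windows of the same length that held a summit of either list. At least as many dendritic cell summits as at Fosl2 were found in 2.89% of windows and at least as many 3T3 summits in 3.18%. For Junb these shares were 2.61% for dendritic cells and 6.74% for 3T3, and for Fos 3.01% for dendritic cells and 11.1% for 3T3, so that the Fos window stood higher among dendritic cell windows than among those of 3T3. Windows with as many summits as Fosl2 in both lists at once made up 0.525% of these windows, as many as Junb 0.929%, and as many as Fos 1.38%. Jun and Egr1 were ordinary by this measure. A Jun-like number was reached in 17.8% of windows for dendritic cells and 25.5% for 3T3, and an Egr1-like number in 40.2% for dendritic cells and 20.1% for 3T3.

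With all listed summits, no locus differed 2-fold in summit number once each count was taken as a share of its list. The log2 ratio of dendritic cells to 3T3 was 0.45 at Fos (95% interval -0.59 to 1.52), 0.34 at Jun (-0.65 to 1.36), 0.32 at Junb (-0.79 to 1.45), 0.11 at Fosl2 (-0.89 to 1.13) and -0.62 at Egr1 (-2.22 to 0.88). Among windows of 140 kb, the median length of the 5, with at least 10 summits, 19.6% had at least 2-fold more dendritic cell summits and 17.0% at least 2-fold more 3T3 summits. The chromosomes carry offsets of their own. Chromosome 12, which bears Fos, had a log2 ratio of 0.48 as a whole, so the Fos window had the ratio of its chromosome (-0.02 after scaling by it). Chromosome 8, which bears Junb, had -0.56, and relative to it the Junb window stood at 0.88. When only the 39898 highest-scoring summits of each list were kept, Fos kept 16 in dendritic cells and 5 in 3T3, a log2 ratio of 1.68, while Junb kept 10 in dendritic cells and 12 in 3T3, a ratio of -0.26. For these shorter lists neither the share of windows past 2-fold nor a scaling by the chromosome was computed.

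**Figure D1:**
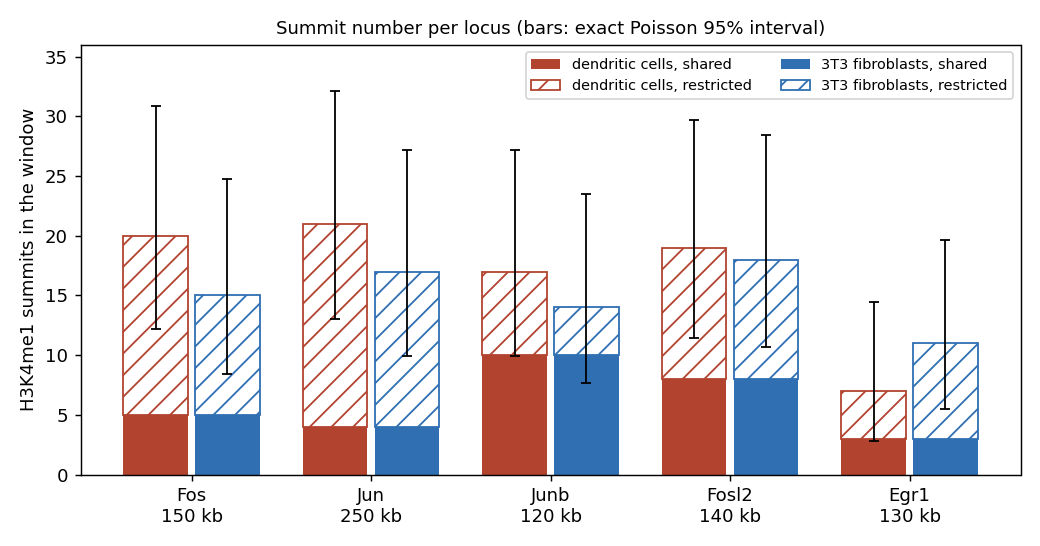
H3K4me1 summits in each window (y axis, number) for dendritic cells (red, left bar) and 3T3 fibroblasts (blue, right bar). The solid part counts summits with a summit of the other cell type within 1000 bp, the hatched part those without, and the black bars are exact Poisson 95% intervals of the total. At Junb 10 of 17 are solid in dendritic cells and 10 of 14 in 3T3, and at Jun 4 of 21 in dendritic cells and 4 of 17 in 3T3.

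Between loci the share of sites common to the cell types ranged widely, and differences between loci were not tested. A summit with a summit of the other list within 1000 bp is called shared below, and a summit without one restricted. Genome-wide, 30.6% of summits were shared in dendritic cells and 29.8% in 3T3. Over the 5 loci it was 30 of 84 in dendritic cells (35.7%, exact Clopper-Pearson 95% interval 25.6 to 46.9) and 30 of 75 in 3T3 (40.0%, 28.9 to 52.0), so the interval takes in the background for dendritic cells and for 3T3. Only Junb had intervals wholly above the background, with 10 of 17 shared in dendritic cells (58.8%, 32.9 to 81.6) and 10 of 14 in 3T3 (71.4%, 41.9 to 91.6). Fosl2 had 8 of 19 (42.1%, 20.3 to 66.5) in dendritic cells, against 8 of 18 (44.4%, 21.5 to 69.2) in 3T3. At Egr1 the shared number was 3 of 7 in dendritic cells (42.9%, 9.90 to 81.6) and 3 of 11 in 3T3 (27.3%, 6.02 to 61.0). Fos had 5 of 20 (25.0%, 8.66 to 49.1) in dendritic cells, against 5 of 15 (33.3%, 11.8 to 61.6) in 3T3. With only the 39898 highest-scoring summits of each list kept, the Fos shares were 6.25% of 16 in dendritic cells and 20% of 5 in 3T3. Each of these is a single summit, and the background is then 22.3% in each list. Jun had the lowest shares, 4 of 21 (19.0%, 5.45 to 41.9) in dendritic cells, against 4 of 17 (23.5%, 6.81 to 49.9) in 3T3. The intervals of Jun, Fos, Fosl2 and Egr1 all take in the background, and they cover counting error only. That background is the share over the whole lists, and none was computed for windows as dense in summits as Junb. With only the highest-scoring summits kept, the Junb shares were 50% (18.7 to 81.3) in dendritic cells, against 41.7% (15.2 to 72.3) in 3T3, and the intervals then took in the background of 22.3% in each list.

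**Figure D2:**
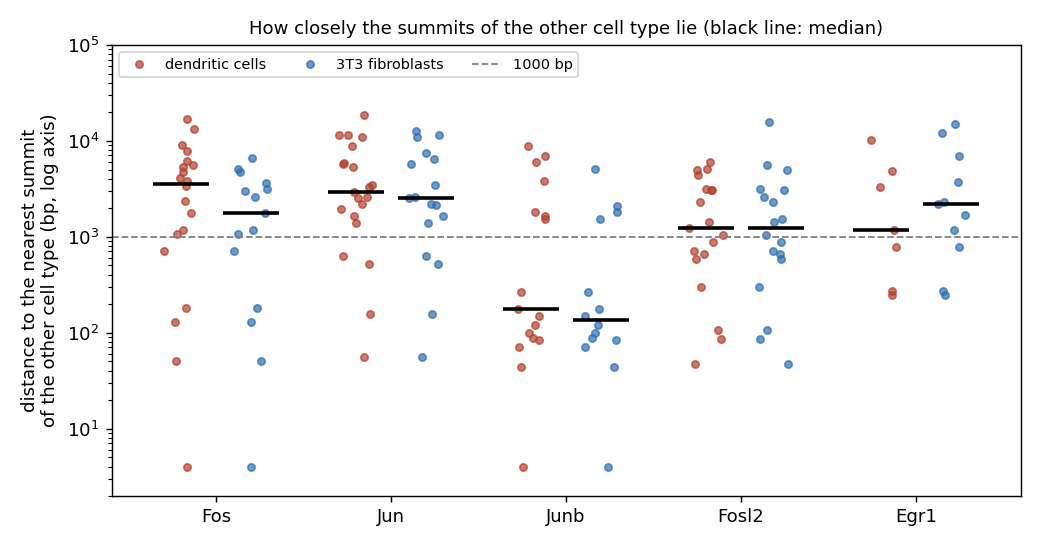
Distance from each summit to the nearest summit of the other cell type (y axis, bp, log scale) for dendritic cells (red, left) and 3T3 fibroblasts (blue, right), with the median as a black line and 1000 bp dashed. The Junb medians are 175 bp in dendritic cells and 135.5 bp in 3T3, while the Jun medians are 2893 bp in dendritic cells and 2503 bp in 3T3.

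The marks at Fos, the inducible partner of the Jun proteins, ranked higher in the dendritic cell list than in that of 3T3. Scores of its 20 dendritic cell summits ran from 21 to 136 with a median of 50, against 18 to 54 with a median of 30 for the 15 summits of 3T3. The score is taken as the height of the signal at the summit, and the whole lists had medians of 36 (dendritic cells) and 33 (3T3). Within their own lists, 16 of 20 summits in dendritic cells and 5 of 15 in 3T3 were above that median, where the whole lists have 48.9% in dendritic cells and 48.9% in 3T3. In the top decile of its list stood 8 of the 20 dendritic cell summits and 0 of the 15 3T3 summits (10.2% of the whole list in dendritic cells and 10.1% in 3T3). The highest dendritic cell summit of the 5 loci, with a score of 136, lay here at 86764379, and only 0.868% of that list scored as high. Its nearest 3T3 summit was 5347 bp away with a score of 25. It opened a run of 5 restricted dendritic cell summits up to 86791113, with scores of 21 to 136. That run was picked as the longest in the window unbroken by a 3T3 summit, so the lack of 3T3 summits in it is fixed. How often such runs occur elsewhere was not computed, and 30.6% of all dendritic cell summits are shared. The highest 3T3 summit, 54 at 86882573, was shared, and 21.7% of the 3T3 list scored at least as high.

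At all 5 shared Fos sites the score was higher in dendritic cells. Pairs are summits that are nearest to each other in both directions within 1000 bp, and ratios are given relative to the median of all 24378 pairs, because no scaling between the lists is recorded. At 86860390 the scores were 94 in dendritic cells and 32 in 3T3, 2.70-fold relative to that median. At 86817087 they were 47 in dendritic cells and 21 in 3T3 (2.06-fold), and at 86759028 they were 54 in dendritic cells and 25 in 3T3 (1.98-fold), with only 4 bp between the summits. The differences were smaller at 86882523, with 93 in dendritic cells and 54 in 3T3 (1.58-fold), and at 86838652, with 35 in dendritic cells and 29 in 3T3 (1.11-fold). The median log2 ratio was 0.99, against 0.29 for the 779 pairs of chromosome 12, and relative to that chromosome it was 0.70 with 4 of the 5 pairs above 0. In the RefSeq annotation the protein-coding neighbours of Fos are Tmed10 on one side and Jdp2, a Jun dimerisation partner, followed by Batf, a further AP-1 family gene, on the other. Gene positions in mm9 were not used, so no summit is assigned to Fos or to a neighbour.

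**Figure D3:**
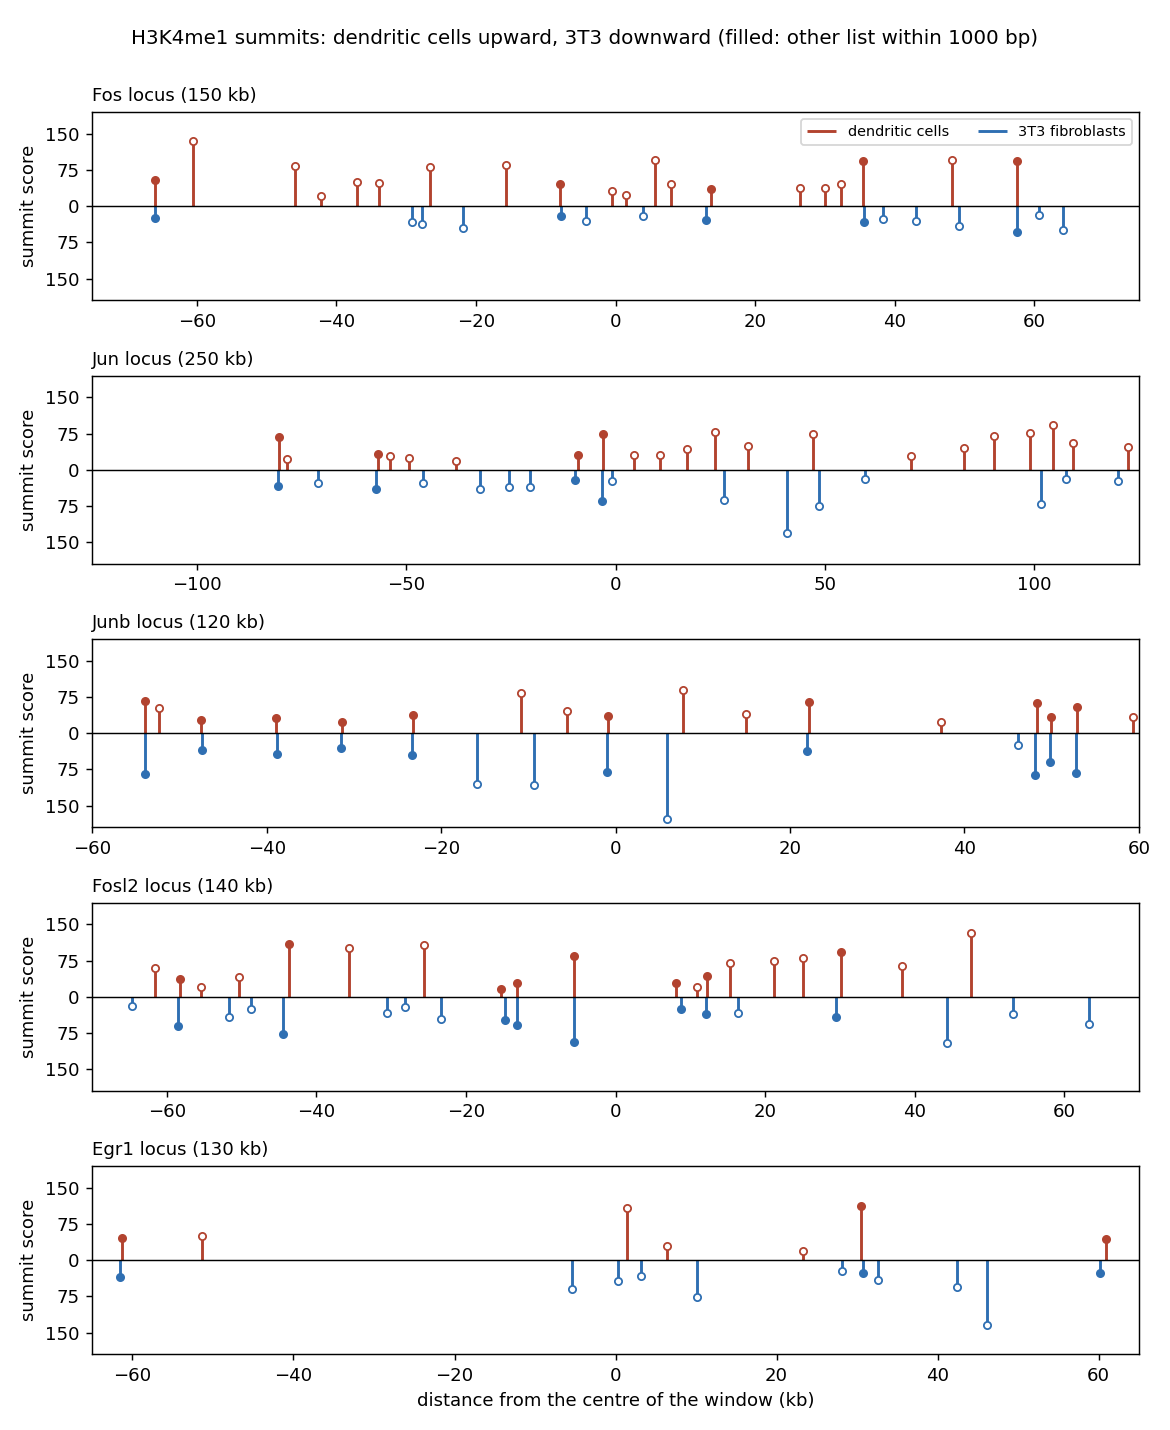
Every H3K4me1 summit of the 5 windows by its distance from the window's centre (x axis, kb) and score (y axis), with dendritic cells drawn upward in red and 3T3 fibroblasts downward in blue. Filled heads are shared within 1000 bp and open heads restricted. The Fos panel shows tall red lines up to 136 over blue lines of at most 54, and the Egr1 panel an empty stretch of 45935 bp.

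Fosl2, the Fos family member without the strong activation domain, was marked at close intervals in both cell types. Its 19 dendritic cell summits scored 16 to 133 with a median of 63, the highest median of the 5 loci in that list, and its 18 3T3 summits scored 20 to 96 with a median of 42.5. In dendritic cells 14 of 19 were above the list median and 7 in the top decile, and in 3T3 13 of 18 and 3. Over each whole list 48.9% are above the median, and 10.2% (dendritic cells) and 10.1% (3T3) in the top decile. Restricted dendritic cell summits were higher than shared ones here, with medians of 69 and 40, while in 3T3 the restricted median was 35 and the shared 54. The longest stretch between summits with no summit of either list was 13653 bp. This was close to the 13890 bp at Jun, 14676 bp at Fos and 15184 bp at Junb, with stretches at the window edges left out.

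The shared Fosl2 sites went in both directions, with runs of neighbouring sites on the same side. At 32434620 the score was 16 in dendritic cells and 49 in 3T3, where the 3T3 value was 3.33-fold higher relative to the median pair. The next site, at 32436837, had 29 in dendritic cells and 59 in 3T3, 2.21-fold higher in 3T3. The site 7592 bp beyond it, at 32444429, had 85 in dendritic cells and 94 in 3T3, 1.20-fold higher in 3T3. At 32480099 the order was turned, with 92 in dendritic cells and 42 in 3T3, 2.01-fold higher in dendritic cells. At 32391788 there were 37 in dendritic cells and 61 in 3T3, 1.79-fold higher in 3T3. The other pairs had 109 in dendritic cells and 78 in 3T3 at 32406332, 28 in dendritic cells and 25 in 3T3 at 32458082, and 43 in dendritic cells and 35 in 3T3 at 32462245. Of the 8 pairs, 4 were higher in dendritic cells and 4 in 3T3, and the median log2 ratio was -0.11, against 0.00 for the 1521 pairs of chromosome 5. The highest summits of the cell types were each other's nearest, 133 at 32497502 in dendritic cells and 96 at 32494335 in 3T3, yet 3167 bp apart and so not shared at 1000 bp. Babam2 and Plb1 flank Fosl2 in the annotation.

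Jun, an AP-1 subunit that can bind without Fos, had 4 sites shared between the cell types, and its shared shares were within counting error of the background given above. Its 21 dendritic cell summits scored 19 to 92 with a median of 46, and its 17 3T3 summits 19 to 132 with a median of 36. In dendritic cells 12 of 21 were above the list median and 1 was in the top decile, and in 3T3 9 of 17 and 2. The shares of the whole lists are 48.9% above the median in each, and 10.2% (dendritic cells) and 10.1% (3T3) in the top decile. The highest summit in dendritic cells, 92 at 94829533, lay 2893 bp from a 3T3 summit of 71. The highest of 3T3, 132 at 94765879, lay 6374 bp from the nearest dendritic cell summit, which scored 75, and 1.402% of the 3T3 list scored at least as high. All 4 shared sites lay in the first part of the window. They had 68 in dendritic cells and 33 in 3T3 at 94644517, 33 in dendritic cells and 39 in 3T3 at 94668261, 30 in dendritic cells and 22 in 3T3 at 94715997, and 74 in dendritic cells and 64 in 3T3 at 94721920. From 94721920 to the end of the window, 128 kb, there followed 13 dendritic cell summits scoring 28 to 92 and 8 3T3 summits scoring 19 to 132, none of them shared at 1000 bp. That stretch was picked because it follows the last pair, so its count of shared summits is fixed at 0, and 30.6% of all dendritic cell summits and 29.8% of all 3T3 summits are shared. Runs of restricted summits occurred in both lists, 4 of dendritic cells from 94729392 to 94748692 and 3 of 3T3 from 94692611 to 94704544. These were picked as the longest of each list, the first where lengths were equal. None of the 4 pairs reached 2-fold, and their median log2 ratio of 0.21 was close to that of the 1331 pairs of chromosome 4 (0.21). Mysm1 and Fggy are the flanking genes.

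Junb, the second Jun protein studied, was the locus where the summits of the cell types lay closest together. The 10 pairs were 4 to 266 bp apart with a median of 94 bp, against a median of 182 bp for all pairs, and the medians of the other loci were 128 bp at Fos, 272 bp at Egr1, 340.5 bp at Jun and 436.5 bp at Fosl2. The shared summits came in rows. At 5 successive shared sites from 87446023 to 87476796, dendritic cells had 67, 27, 32, 24 and 37 and 3T3 had 85, 35, 43, 31 and 46. A restricted dendritic cell summit of 53 at 87447666 also lay in this stretch. With that summit left out, the rise and fall along the shared sites was the same in both lists. Each shared site had a ratio between 1.35 and 1.46 in favour of 3T3. A further row at 87548265, 87549890 and 87552923 had 63, 33 and 54 in dendritic cells and 86, 59 and 82 in 3T3. The remaining pairs departed from this in opposite directions, with 36 in dendritic cells and 81 in 3T3 at 87499145 (2.45-fold higher in 3T3) and 65 in dendritic cells and 37 in 3T3 at 87522154 (1.61-fold higher in dendritic cells).

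The Junb score offset was close to that of its chromosome. The score was higher in 3T3 at 9 of the 10 pairs, with a median log2 ratio of -0.52. The 1400 pairs of chromosome 8 had a median of -0.47, and relative to it the Junb median was -0.05, with 3 pairs higher in dendritic cells and 7 in 3T3. Among the few restricted summits the raw scores of the cell types differed more, without scaling to the chromosome. These restricted summits lay 1538 to 8846 bp from the other list in dendritic cells and 1538 to 5067 bp in 3T3. Of all summits in the window, 76.5% in dendritic cells and 85.7% in 3T3 count as shared at 2000 bp. The share over the whole lists at that distance was not computed. The restricted median was 47 over 7 summits in dendritic cells and 106 over 4 in 3T3, above the shared medians of 36.5 in dendritic cells and 52.5 in 3T3, the reverse of the whole lists, where restricted summits score below shared ones (34 and 40 in dendritic cells, 32 and 36 in 3T3). The highest 3T3 summit of all 5 loci was here, 178 at 87505908, a score that only 0.301% of the 3T3 list reaches. The highest dendritic cell summit, 90 at 87507701, was 1793 bp from it, so at 1000 bp both count as restricted. Of the 17 dendritic cell summits 10 were above the list median and 2 in the top decile, and of the 14 3T3 summits 12 and 7. Whole-list shares are 48.9% above the median in each list, and 10.2% (dendritic cells) and 10.1% (3T3) in the top decile. Prdx2 and Hook2 are the protein-coding neighbours.

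**Figure D4:**
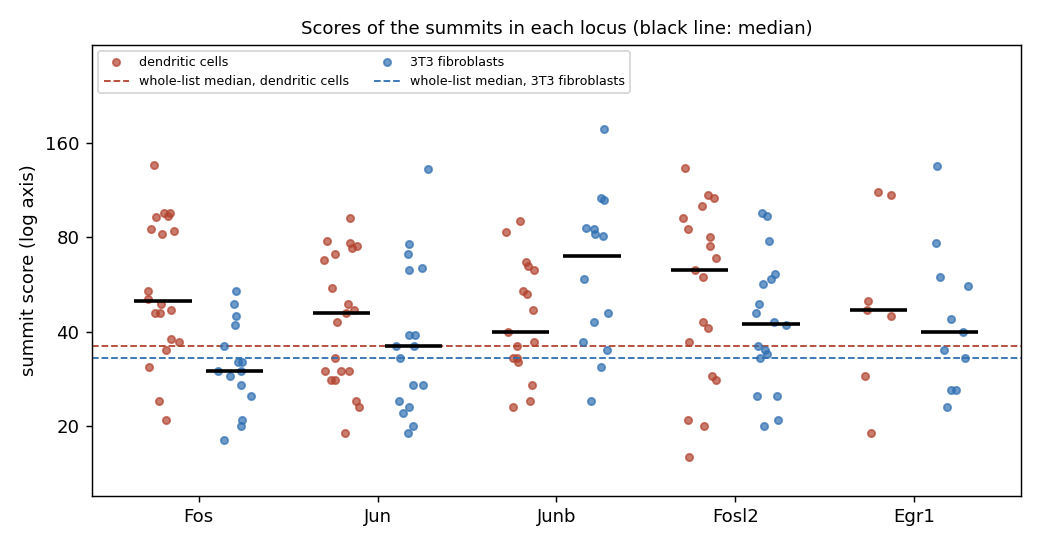
Summit scores in each locus (y axis, log scale) for dendritic cells (red, left) and 3T3 fibroblasts (blue, right), with the median of each as a black line and the median of each whole list dashed (36 in dendritic cells, 33 in 3T3). The Fos medians are 50 in dendritic cells and 30 in 3T3, and at Junb they are 40 in dendritic cells and 70 in 3T3.

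Egr1, the zinc finger gene, had 7 dendritic cell summits and, among the 5 windows, the widest empty stretch between summits. From 34963688 to 35009623, 45935 bp, no summit of either list was called. The largest such stretches in the other windows were 13653 to 15184 bp, with stretches at the window edges left out. At its edge, the Jun window held no summit of either list from its start to 94644461, a length close to that at Egr1. An empty stretch of about this length was therefore not particular to Egr1. The median spacing is 8173 bp in the whole dendritic cell list and 9167 bp in that of 3T3, but a largest stretch is not a like measure. The share of windows with a stretch as wide was not computed. The 7 dendritic cell summits scored 47, 50, 109, 29, 19, 112 and 45 along the chromosome, and 5 were above the list median. The 11 summits of 3T3 scored 23 to 135 with a median of 40, and 7 were above the list median. Genome-wide 48.9% of each list is above its median, and 10.2% (dendritic cells) and 10.1% (3T3) in its top decile. In each list 2 stood in the top decile, at different places in the cell types. Those of dendritic cells were 109 at 35016479, 1167 bp from a 3T3 summit of 44, and 112 at 35045427, 246 bp from a 3T3 summit of 26. That shared site had the largest ratio of the 30 pairs, 3.96-fold higher in dendritic cells relative to the median pair. In 3T3 they were 77 at 35025152 and 135 at 35061087, the last lying 14880 bp from the nearest dendritic cell summit. It ended a run of 3 restricted 3T3 summits that began at 35047616, picked as the longest such run in the window. The other shared sites had 47 in dendritic cells and 35 in 3T3 at 34953749, and 45 in dendritic cells and 26 in 3T3 at 35075967. All 3 pairs were higher in dendritic cells, with a median log2 ratio of 0.67, against 0.03 for the 785 pairs of the chromosome. Reep2 and Etf1 flank Egr1 in the annotation.

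Across the 5 loci the pairs as a whole favoured neither cell type. Of the 10 highest summits, 1 for each locus and list, 8 were restricted and 2 shared, 1 in each list. For the highest summit of every 140 kb window with at least 10 summits, dendritic cells had 39.5% shared and 3T3 had 39.8%. With 10 summits, 2 shared cannot be told from these shares, and at Junb and Fosl2 the highest summits of the lists are nearest neighbours of each other. Of the 30 pairs, 4 were at least 2-fold higher in dendritic cells and 3 at least 2-fold higher in 3T3, where 11.6% of all pairs are at least 2-fold higher in dendritic cells and 11.9% in 3T3. These shares are near the background. The median log2 ratio over the 30 pairs was 0.06, with 16 higher in dendritic cells and 14 in 3T3. The locus medians ran from -0.52 at Junb to 0.99 at Fos, and for pairs within 500 bp the median over all loci was -0.34. Scores in the 5 loci were above the list median for 57 of 84 summits in dendritic cells (67.9%) and 46 of 75 in 3T3 (61.3%). The whole lists have 48.9% in each cell type. In the top decile were 20 of 84 in dendritic cells and 14 of 75 in 3T3, where the whole lists have 10.2% in dendritic cells and 10.1% in 3T3.

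**Figure D5:**
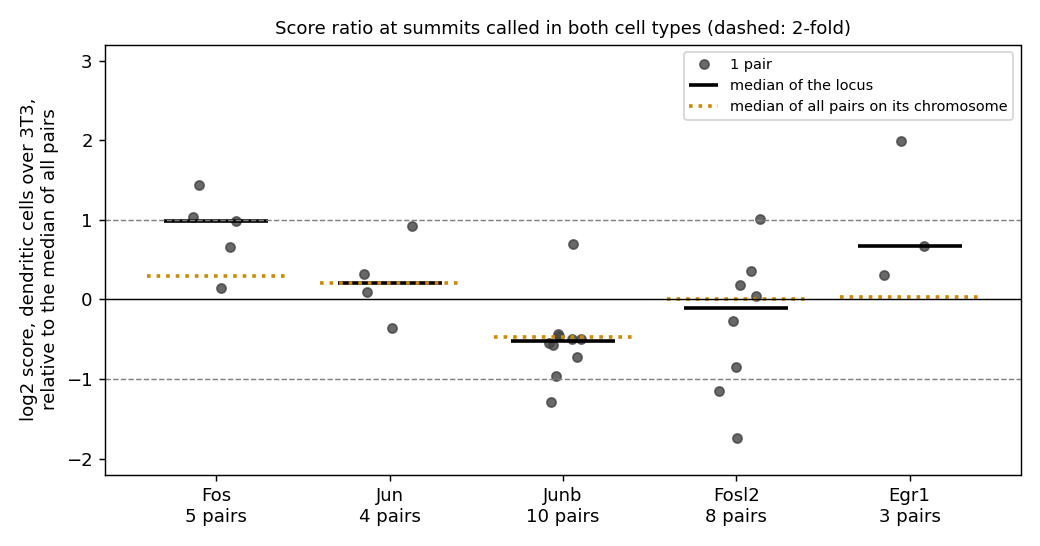
Log2 ratio of the dendritic cell score over the 3T3 score at each pair of shared summits (y axis), relative to the median of all pairs, by locus. Black lines are locus medians, dotted lines the median of all pairs on the same chromosome, and dashed lines 2-fold. All 5 Fos pairs and all 3 Egr1 pairs lie above 0, and the Junb median of -0.52 lies close to that of its chromosome, -0.47.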

How the data were processed

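H3K4me1 ChIP-seq in unstimulated dendritic cells and 3T3 was analysed, 1 library each, grouped by sample title. Per the labels' protocols, fixed nuclei were sonicated, fragments averaged about 300 bp, PCR ran for 18 cycles and reads were single, of 36 bp. Per the submitters' processing notes, Bowtie aligned the reads to mm9 and MACS 1.4 called the peaks. Per the file headers, calling used a p threshold of 1e-04 and a shift of 150 bp, without a fragment model or a local background. The deposited score was treated as a signal, the height at the summit. Its minimum was 13 in each list and every value was whole. The depth behind the lists and any use of input in calling are unknown, and where no summit is listed the mark may still be present below the threshold.

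Positions are 1-based. Members and settings were chosen with earlier results of these data known. All 5 loci, the highest summit of each list and all pairs are named; other genes and stretches were picked after their values were seen. No p-values were computed, and intervals cover counting error only, taking summits as independent. The overlap code was tested on simulated data. Cell type markers and other AP-1 genes were planned, but the gene table at hand is GRCm38.p6 and the lists name no genes, so neither was placed and the cell labels were not checked by markers. That each window holds its gene was taken from the rule. Of that table, only names and order were used. Computation used Python 3.11.15 with scipy 1.17.1, numpy 2.4.6 and pandas 2.3.3, and plots matplotlib 3.10.9.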

Additional observations from a re-analysis of the deposited data

How the results depend on the processing

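The summit numbers followed the windows and score minimum used. Over the 5 loci they were 130 in dendritic cells and 117 in 3T3 with windows widened by 50 kb, and 48 in dendritic cells and 42 in 3T3 in the central 0.5 of each window. In 3T3 they were 46 with equally many of the highest-scoring summits per list and 49 at or above the list median. The shared share was 22.6% of dendritic cell and 25.3% of 3T3 summits at 250 bp, 51.2% (dendritic cells) and 56.0% (3T3) at 2000 bp, and 22.8% (dendritic cells) and 28.3% (3T3) among top-scoring summits. For Fosl2 it was 15.8% (dendritic cells) and 16.7% (3T3) at 250 bp. Whole-list shares were computed for neither 250 nor 2000 bp. The shares at these distances therefore cannot be read as above or below a background, and the 1000 bp background does not apply to them. The median log2 ratio of all pairs was 0.06, and -0.34 for pairs within 500 bp. The number ratio of the 5 loci lay between 0.19 and 0.31 in the settings tried. Merging left 84 summits in dendritic cells and 75 in 3T3. Within single loci the Jun median went to 0.52 within 500 bp, resting only on the pairs at 94644517 and 94721920. The Fosl2 median went to -0.54, resting only on those at 32391788, 32436837, 32444429 and 32462245. For these shifts the cause was not tested. No paired analysis was possible because each cell type has 1 library, and for the same reason no library was left out.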
